A study of Homo sapiens with 4 samples.

Results

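The expression of 39 lysosomal genes was compared between naive and arsenic trioxide (ATO) resistant cells of the NB4 line, an established human line derived from acute promyelocytic leukemia (APL). The set holds soluble hydrolases, their activator and carrier proteins, and proteins of the lysosomal membrane. Its members were taken as every probe whose gene name on the array was one of 39 listed names. All 39 names were found, on 58 of the 41000 probes of the array and among its 18178 named genes.

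RNA was taken from 2 independent flasks of naive NB4 cells and from 2 flasks of the resistant line, which was derived in-house from NB4 and is 1 clone, written NB4-VM-AsR1 in the labels and NB4-EV-AsR1 in the methods (taken here for the same clone). Both lines were cultured in RPMI with FBS, and ATO was withdrawn from the resistant cells for a week before RNA was prepared. Thus no flask was under ATO at the time of harvest, and the comparison asks how the lysosomal genes of the resistant clone stand against those of the naive line. Each flask was hybridised to 1 one-colour Agilent array.

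Lysosomes are acidic compartments in which hydrolases delivered from the Golgi, mostly through mannose 6-phosphate receptors, break down proteins, glycans and lipids. A proton pump, the V-ATPase, keeps the lumen acidic, heavily glycosylated proteins such as LAMP1 and LAMP2 line the membrane, and small activator proteins present lipids to the enzymes. In promyelocytes the azurophil granules are made through the same route and share many of these hydrolases.

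The signal is given throughout as the log2 intensity of a probe minus the 75th percentile of its array, so that 0 is the level of that percentile and a difference of 1 is 2-fold. Between 27921 and 28243 probes per array were well above background, the lowest of them at values from -6.58 to -6.17, and 457 to 566 probes were saturated. All 4 arrays lay on 1 slide, the naive flasks at the first positions and the resistant flasks at the last, so position and line cannot be told apart. Of the promyelocyte markers, 8 of 8 were well above background on at least 1 array and 7 of 8 on every array. MPO was saturated on all arrays, and MYB and CTSG on 2 of the arrays each.

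Of the 39 members, 37 were tested, having a probe that both arrays of a line (naive, resistant or both) measured well above background, and 35 had one above background on all 4 arrays. CTSO, a cysteine cathepsin, gave -8.64 and -8.45 in the naive flasks and -8.62 and -8.72 in the resistant flasks. LGMN, the asparaginyl endopeptidase that trims several cathepsins, gave -8.60, -8.38, -7.82 and -8.56 in the same order. These genes were not well above background on any array and have no comparison. Where a gene had several probes, the tested probe with the highest mean signal stands for it.

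A gene was called changed at a limma adjusted p below 0.05, taken over all probes tested, and a change of at least 2-fold. In the resistant line 5 of the 37 tested members were called (13829 named genes were tested, of which 6.28% were called). ACP5, NPC2, SCARB2 and GM2A were higher (2.95% of all genes) and CTSW was lower (3.33% of all genes). The other 32 members did not pass. The called members were a phosphatase, a sterol carrier, a membrane receptor, a lipid activator and a granule protease of lymphocytes, with 0 of the 9 glycosidases, 0 of the 2 sulfatases and 0 of the 4 lipid and thioester hydrolases among them. For all of these values, more transcript per cell and more cells with the transcript cannot be told apart in bulk RNA.

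**Figure D1:**
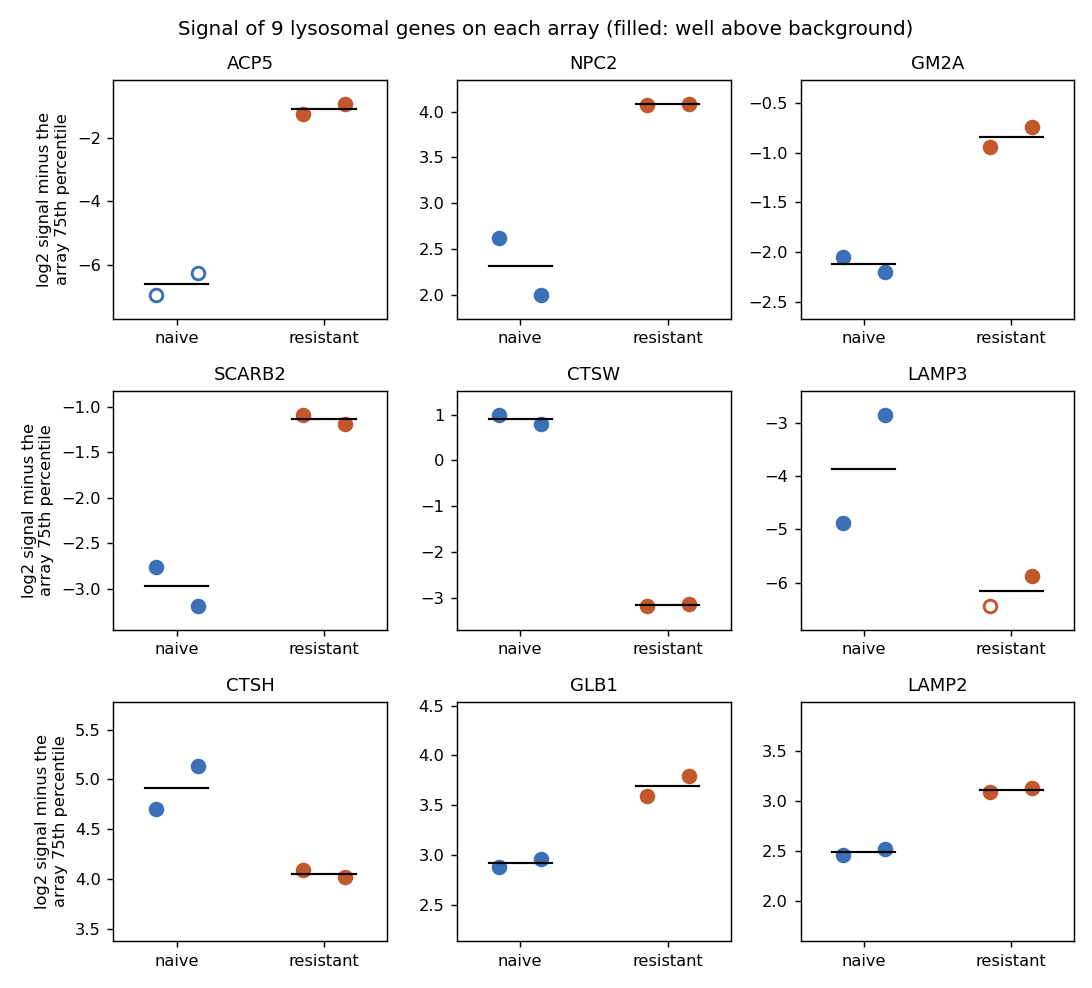
Signal on each array (log2 intensity minus the array's 75th percentile) of the 5 called members and of LAMP3, CTSH, GLB1 and LAMP2, each point 1 flask, with a line at the mean of each line. Filled points were well above background and open points were not, and the axis range differs between panels. ACP5 lay at -6.93 and -6.23 in the naive flasks and at -1.26 and -0.93 in the resistant flasks, while CTSW lay at 1.00 and 0.79 against -3.18 and -3.14.

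ACP5 encodes the tartrate-resistant acid phosphatase, known from osteoclasts and some macrophages. Its signal was -6.93 and -6.23 in the naive flasks, neither well above background, and -1.26 and -0.93 in the resistant flasks, both well above it. The flasks of the lines did not overlap, which held for 57.7% of all genes. The resistant level was at least 35.8-fold higher (means -6.58 ± 0.49 and -1.10 ± 0.23, SD, n = 2 flasks each, limma adjusted p = 0.00142). For this bound the naive level was put, array by array, at the dimmest signal still well above background, or at that of the ACP5 probe where it was brighter. Here and wherever such a bound is given, the dim line has no measured level, so the p-value, the SD and the interval do not measure its spread. The single ACP5 probe covers chr19:11685525-11685584 of hg19 on the minus strand. The other phosphatase of the set, ACP2, the common lysosomal acid phosphatase, gave -2.94 and -3.46 in the naive and -2.84 and -3.51 in the resistant flasks, and the lines overlapped.

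Markers of osteoclasts and macrophages were read beside ACP5. Of 3 osteoclast markers 2 were on the array, and of these CALCR was not well above background on any array and TM7SF4, the fusion receptor DC-STAMP, differed by 0.044 ± 0.29 (SE). Of the 9 monocyte and macrophage markers 8 were on the array and 4 were well above background, of which MARCO, a scavenger receptor, was higher in the resistant line (by 1.87 ± 0.23, SE, limma adjusted p = 0.0128). CSF1R, the receptor of macrophage colony-stimulating factor, was at 1.47 and 1.68 in the naive and 2.70 and 2.90 in the resistant flasks (limma adjusted p = 0.0519), while CD14 and C1QA were at -0.50 and -0.77 relative to the naive line without passing the test. CD163, MSR1, C1QB and FCGR3A were not well above background on any array. The log2 of the summed signal of this list was 1.56 and 1.78 in the naive and 2.76 and 2.96 in the resistant flasks. Most of this sum is the signal of CSF1R, which was not called. The part of this list in the ACP5 result was not tested.

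NPC2 is the soluble carrier that binds cholesterol in the lysosomal lumen and hands it to the membrane protein NPC1. Its signal was 2.62 and 2.01 in the naive flasks and 4.07 and 4.09 in the resistant flasks, with no overlap. The change was 1.76 ± 0.29 (SE, n = 2 flasks a line, limma adjusted p = 0.0326), or 3.39-fold. NPC1 was not called, with -0.33 and -0.42 in the naive and -0.57 and -0.61 in the resistant flasks (limma adjusted p = 0.648). The probe for NPC2 covers chr14:74946754-74946813 of hg19 on the minus strand.

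GM2A, the activator that presents GM2 ganglioside to hexosaminidase A, had the smallest change of the called members. Its brightest probe gave -2.05 and -2.19 in the naive flasks and -0.95 and -0.74 in the resistant flasks, a change of 1.28 ± 0.23 (SE, limma adjusted p = 0.0439). The other 3 probes gave 0.67, 0.74 and 1.03, all in the same direction but none called (limma adjusted p from 0.273 to 0.428), and the call was lost when all probes of the gene were averaged (0.93). HEXA, the alpha subunit of the enzyme that GM2A serves, was at 1.99 and 2.23 in the naive and 2.41 and 2.34 in the resistant flasks, a difference of 0.27 ± 0.23 (SE) that did not pass. PSAP, the precursor of the saposins, was at 2.73 and 3.02 against 3.46 and 3.24, without overlap (limma adjusted p = 0.366).

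SCARB2, also named LIMP-2, is the membrane protein that carries beta-glucocerebrosidase to the lysosome. It gave -2.76 and -3.19 in the naive flasks and -1.09 and -1.19 in the resistant flasks. The flasks did not overlap, and the change was 1.83 ± 0.25 (SE, limma adjusted p = 0.0194), or 3.56-fold. Its second probe, well above background on 1 of 2 naive arrays and on both resistant arrays, gave 1.35 ± 0.27 (SE) and did not pass (limma adjusted p = 0.0583). NPC2, SCARB2 and GM2A were no longer called when either resistant flask was left out, whereas ACP5 and CTSW were (limma, the remaining flask taken to vary like the other line).

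CTSW, or lymphopain, is a cysteine cathepsin known from cytotoxic T and natural killer cells. Its signal was 1.00 and 0.79 in the naive flasks and -3.18 and -3.14 in the resistant flasks, all well above background. The flasks did not overlap, and the change was -4.05 ± 0.22 (SE, limma adjusted p = 0.00127), or 16.6-fold lower. The second probe, which does not overlap the first on the mRNA, gave 0.73 and 0.47 against -3.50 and -3.71, a change of -4.21 ± 0.24 (SE, limma adjusted p = 0.00135). The first bases of both are shown because the largest fall of the set rests on 2 separate stretches of the mRNA.
CTSW probe at base 756: gacttcatcatgctgcagaacaacgagcac
CTSW probe at base 826: tgaccatcaacatgaagccccttcagctat

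Of the 7 T and NK cell markers, 5 were well above background on at least 1 array and 4 on all arrays. CD3D, a chain of the T cell receptor complex, was lower in the resistant line together with CTSW, at 0.70 and 1.16 in the naive flasks and -7.61 and -7.11 in the resistant flasks, where it was not well above background, so it was at least 167-fold lower (limma adjusted p = 0.000755). CD3E, CD7, CD2 and NKG7 did not pass, with changes of -0.014, -0.23, 1.02 and -0.55, and GNLY and KLRD1 were not well above background on any array. The log2 of the summed signal of the list was 2.00 and 2.25 in the naive and 0.70 and 0.92 in the resistant flasks, and its part in the CTSW result was not tested.

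**Figure D2:**
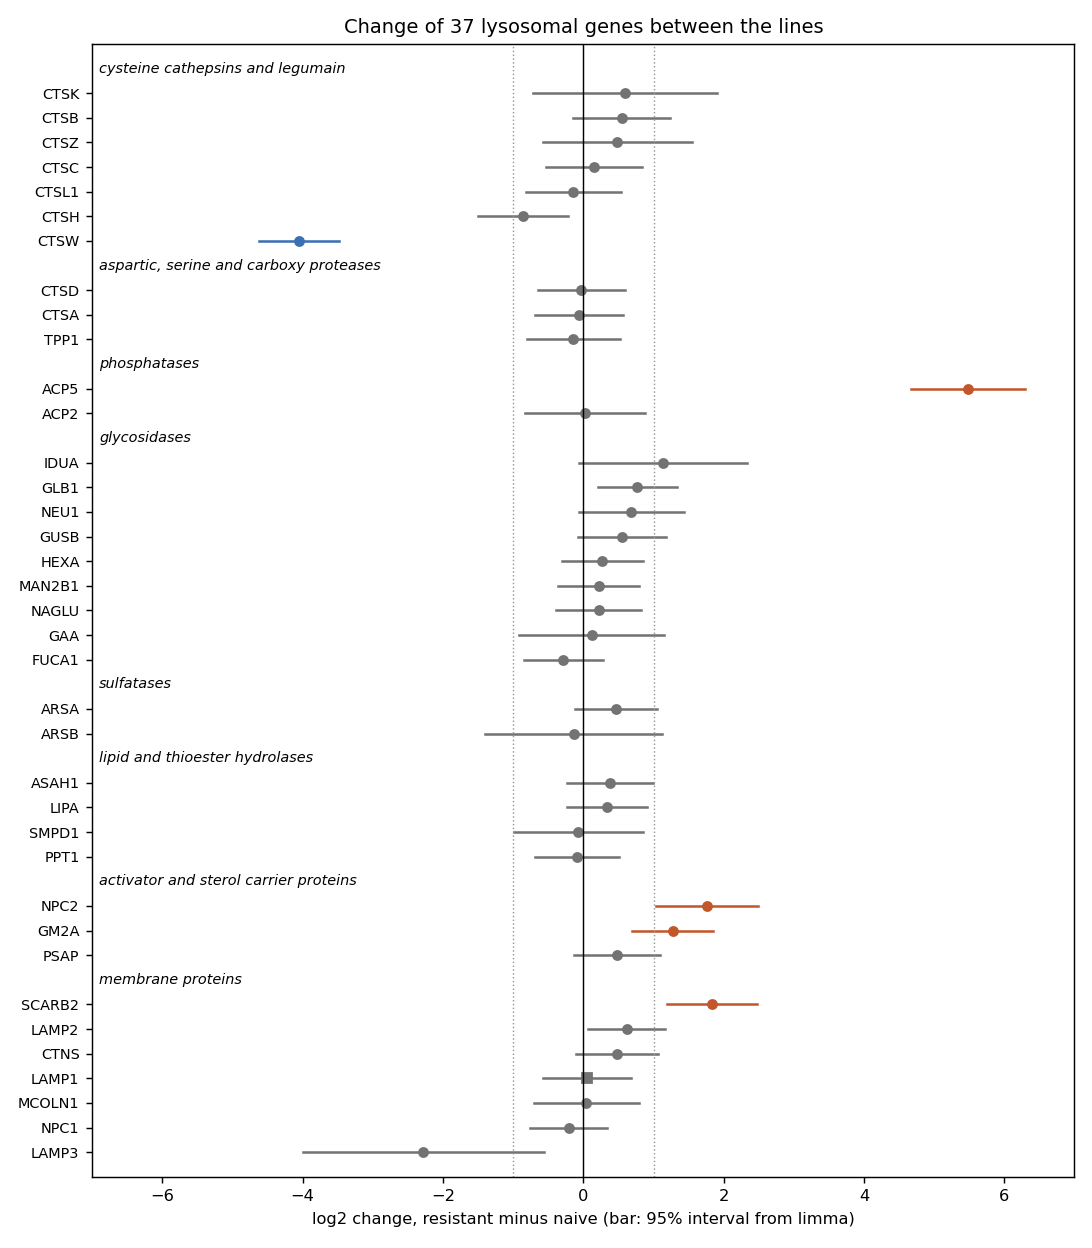
Change of the 37 tested members (log2, resistant minus naive), grouped by role, with the 95% interval from limma as a bar, dotted lines at 2-fold either way, called genes in orange (higher) and blue (lower), and a square for LAMP1, whose probe was saturated on all 4 arrays. Of the 37 intervals, 17 lay within the dotted lines, while those of ACP5, CTSW, NPC2 and SCARB2 lay wholly outside them. The naive values of ACP5 were not well above background, so its interval does not measure the spread of a naive level.

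Among the other cysteine cathepsins no member passed. CTSH, an aminopeptidase and endopeptidase, was at 4.70 and 5.13 in the naive and 4.09 and 4.02 in the resistant flasks. The change was -0.86 ± 0.25 (SE, limma adjusted p = 0.156). It was -1.08 without the first naive flask and smaller in size than -0.86 without the second. CTSB, the abundant cathepsin B, was at 2.09 and 2.62 against 2.82 and 2.97 (limma adjusted p = 0.360). Naive and resistant flasks did not overlap for either gene, in opposite directions (57.7% of all genes did not overlap). CTSK, known as the collagenase of osteoclasts, was at -1.70 and -0.19 in the naive and -0.27 and -0.44 in the resistant flasks. The naive flasks of CTSK lay further apart than the lines did. Its change was 1.35 without the second naive flask, the one nearer the resistant flasks, and turned negative without the first. CTSC, which activates the serine proteases of azurophil granules, changed by 0.15 ± 0.27 (SE) on its brightest probe and by -0.28 and 0.17 on the others. The probe with 0.17 lies on the strand opposite to the brightest probe and had no current RefSeq symbol, so it may not measure CTSC. CTSZ and CTSL1 (now CTSL) changed by 0.48 ± 0.42 and -0.14 ± 0.27 (SE) with overlap between the lines.

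None of the 3 other proteases was called. CTSD, the main aspartic protease of lysosomes, was at -1.19 and -1.22 in the naive and -1.04 and -1.43 in the resistant flasks. CTSA, the carboxypeptidase that protects beta-galactosidase and neuraminidase, was at 3.07 and 2.71 against 2.74 and 2.92, and TPP1, a tripeptidyl peptidase, at 0.18 and 0.64 against 0.35 and 0.18. The lines overlapped for all 3 genes, and their 95% intervals of the change lay within 2-fold either way, from -0.81 for the lowest bound to 0.59 for the highest.

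Of the 9 glycosidases, which strip sugars from glycoproteins, glycolipids and glycosaminoglycans, 8 had a higher mean in the resistant line and 1 a lower one, but none was called. Their flasks did not overlap for 8 of the 9, with the resistant flasks above for 7 of these (57.7% of all genes did not overlap, 28.5% with the resistant flasks above). GLB1, the lysosomal beta-galactosidase, was at 2.88 and 2.95 in the naive and 3.59 and 3.79 in the resistant flasks, a change of 0.77 ± 0.22 (SE, limma adjusted p = 0.153), and its second probe gave 0.63 ± 0.22. NEU1, the sialidase that works in a complex with GLB1 and CTSA, was at 2.83 and 2.22 against 3.32 and 3.09 (0.68 ± 0.30, SE), and GUSB, the beta-glucuronidase, at 4.67 and 4.98 against 5.23 and 5.51 (0.55 ± 0.25, SE). IDUA, the iduronidase, had the largest difference at 1.14 ± 0.47 (SE, limma adjusted p = 0.284), with -4.19 and -2.82 in the naive and -2.32 and -2.41 in the resistant flasks. Its change was 1.82 without the second naive flask, the one nearer the resistant flasks, and smaller than 1.14 without the first. MAN2B1, an alpha-mannosidase, and NAGLU, which acts on heparan sulfate, differed by 0.22 each, and GAA, the acid alpha-glucosidase that degrades glycogen, by 0.12 ± 0.41 (SE). FUCA1, the fucosidase, was at -0.086 and -0.28 in the naive and -0.50 and -0.44 in the resistant flasks.

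The sulfatases and lipid hydrolases stayed without a call. ARSA, which removes sulfate from sulfatide, was at -2.87 and -2.81 in the naive and -2.24 and -2.51 in the resistant flasks (limma adjusted p = 0.356), whereas the naive flasks of ARSB, at -1.17 and -2.64, enclosed the resistant ones at -2.01 and -2.07. ASAH1, the acid ceramidase, differed by 0.38 ± 0.24 (SE) and LIPA, the acid lipase of cholesteryl esters, by 0.34 ± 0.22 (SE), in both cases with the resistant flasks above the naive ones. SMPD1, the acid sphingomyelinase, and PPT1, a palmitoyl thioesterase, differed by -0.070 ± 0.36 and -0.089 ± 0.24 (SE), with overlap. On the brightest probe of each of the 4 lipid and thioester hydrolases the 95% interval lay within 2-fold either way. The second probes of ASAH1 and PPT1 gave 0.79 ± 0.31 and -0.51 ± 0.40 (SE), with intervals that passed 2-fold, and were not called. That ASAH1 probe had no current RefSeq symbol.

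Among the membrane proteins SCARB2 was the call. LAMP2, a major glycoprotein of the lysosomal membrane with a part in autophagy, was at 2.46 and 2.52 in the naive and 3.09 and 3.13 in the resistant flasks, a change of 0.62 ± 0.22 (SE, limma adjusted p = 0.215). Its other probes gave 0.89 and 0.87, likewise not called. LAMP1 could not be compared on its brightest probe, which was saturated on all 4 arrays, and its other probe gave -0.18 ± 0.38 (SE). LAMP3, the form found in mature dendritic cells, was at -4.88 and -2.86 in the naive and -6.43 and -5.87 in the resistant flasks, well above background on 2 of 2 naive arrays and 1 of 2 resistant arrays. The flasks of LAMP3 did not overlap, but the naive flasks lay far apart and the change of -2.28 ± 0.68 (SE) did not pass (limma adjusted p = 0.161). Without the first naive flask the change was -3.29, and without the second it was -1.27. Of the 5 dendritic cell markers 4 were on the array and 3 above background, and CCR7, CD1A and CD83 differed by -1.54, -0.076 and 0.19 without passing. CTNS, the cystine transporter, was at -1.46 and -1.72 against -1.10 and -1.12 (0.48 ± 0.23, SE), and MCOLN1, the calcium channel TRPML1, differed by 0.041 ± 0.30 (SE).

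Across the 37 tested members, 25 had a higher and 12 a lower mean in the resistant line, and the median change was 0.22 against 0.0030 over all named genes tested. The flasks of the lines did not overlap for 23 of the 37 members (57.7% of all genes), with the resistant flasks above in 18 (28.5% of all genes) and below in 5 (29.2% of all genes). At an unadjusted limma p below 0.05 there were 9 members (21.1% of all genes), and the 95% interval of the change lay within 2-fold either way for 17 members (45.8% of all genes). LAMP1, with its saturated probe, is within these counts. CTSA, CTSD and PPT1 turned from lower to higher under scale normalization and LAMP1 from higher to lower under quantile normalization, all with changes under 0.12 either way.

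**Figure D3:**
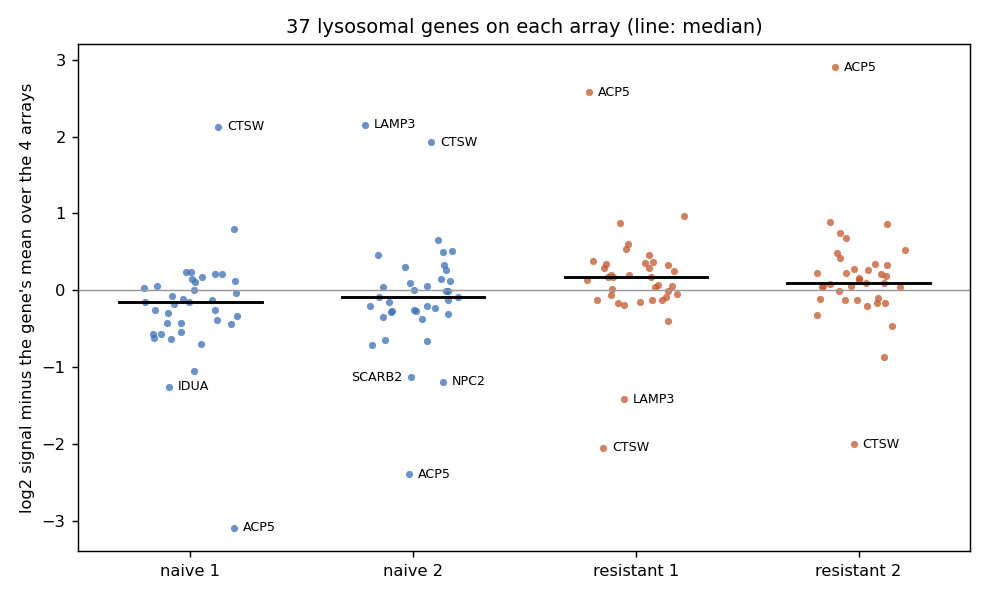
Signal of the 37 tested members on each array as the log2 difference from the gene's own mean over the 4 arrays, each point 1 gene, with a line at the median and names for genes beyond 1.1 either way. The medians of both resistant arrays lie above those of both naive arrays, and the points of ACP5, CTSW and LAMP3 lie farthest out.

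The naive flasks differed more from each other than the resistant flasks did. The median absolute difference between the flasks of a line was 0.36 for naive and 0.17 for resistant over the tested members, against 0.43 to 0.49 between flasks of different lines. Over all probes tested the SD of the difference was 0.71 within the naive pair, 0.37 within the resistant pair and 1.01 to 1.07 between the lines. An exact two-sided permutation test of a single gene cannot go below p = 0.333 with 2 flasks against 2, and the calls draw on the variance that limma shares between probes.

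Of the members, 14 had more than 1 probe. The tested probes of 2 genes, GM2A and SCARB2, disagreed in the call, and those of 3 genes, ACP2, CTSC and LAMP1, in the direction, none of these passing the test. For CTSW both probes were called.

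**Figure D4:**
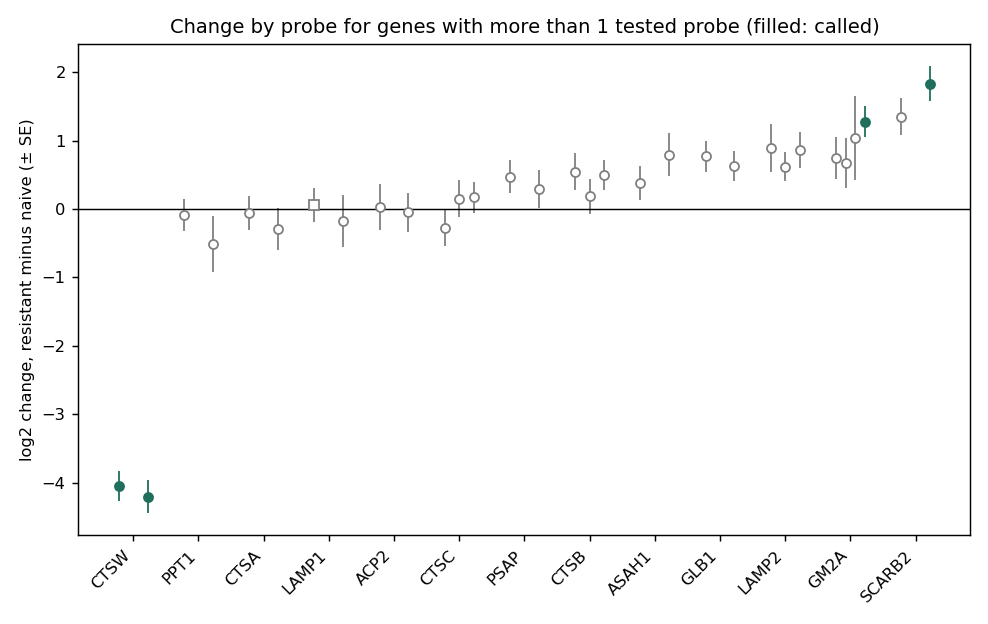
Change by probe (log2, resistant minus naive, ± SE) for the 13 members with more than 1 tested probe, filled where the probe was called and as a square where it was saturated on all 4 arrays. Both CTSW probes lie near -4, and 1 of the 4 GM2A probes and 1 of the 2 SCARB2 probes are called.

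Many lysosomal genes carry the CLEAR element near their start, which is bound by the transcription factor TFEB and its relatives MITF, TFE3 and TFEC. Promoter windows of 300 bases (250 before to 50 after the start, RefSeq, GRCh38.p14) were at hand for 27 of the 39 members and searched on both strands. The palindromic core TCACGTGA was found in 4 of 27 windows (14.8%), those of CTSA, GAA, LAMP1 and MCOLN1, against 1.04% of all 27305 windows. The E-box CACGTG, which lies within that core, was found in 7 (25.9% against 7.43%). The related M-box TCATGTG, read as CACATGA on the other strand, was found in 5, those of ACP5, CTSA, PPT1, SCARB2 and TPP1 (18.5% against 2.99%). Stretches of 40 bases around a core are given to show it in place, with matches to the searched motifs in capitals and all on the plus strand.
CTSA chr20:45891293-45891332: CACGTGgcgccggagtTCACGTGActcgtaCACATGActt
GAA chr17:80101488-80101527: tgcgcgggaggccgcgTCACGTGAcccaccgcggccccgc
LAMP1 chr13:113297194-113297233: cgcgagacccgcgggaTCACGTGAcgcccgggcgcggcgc
MCOLN1 chr19:7522566-7522605: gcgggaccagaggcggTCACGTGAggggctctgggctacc

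No member with the core was called. CTSA, GAA and MCOLN1 differed by -0.063, 0.12 and 0.041 between the lines, and LAMP1 was saturated. Of the 4 called members with a window, 0 held the core, 1 the E-box (ACP5) and 2 the M-box (ACP5 and SCARB2). No window was at hand for CTSW. The 200 bases before the start of the 4 called members are given because these are the genes that rose, read along the gene's own strand (minus for ACP5, NPC2 and SCARB2, plus for GM2A), with matches in capitals.
ACP5 chr19:11577646-11577845: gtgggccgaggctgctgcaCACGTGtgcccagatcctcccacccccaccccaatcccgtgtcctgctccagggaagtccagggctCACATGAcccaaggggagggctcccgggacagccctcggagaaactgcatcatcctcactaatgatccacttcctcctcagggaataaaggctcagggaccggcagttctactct
SCARB2 chr4:76213825-76214024: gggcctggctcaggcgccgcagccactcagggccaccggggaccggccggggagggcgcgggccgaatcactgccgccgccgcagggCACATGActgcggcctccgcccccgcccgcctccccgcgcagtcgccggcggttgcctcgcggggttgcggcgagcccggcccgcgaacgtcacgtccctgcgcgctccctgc
NPC2 chr14:74493306-74493505: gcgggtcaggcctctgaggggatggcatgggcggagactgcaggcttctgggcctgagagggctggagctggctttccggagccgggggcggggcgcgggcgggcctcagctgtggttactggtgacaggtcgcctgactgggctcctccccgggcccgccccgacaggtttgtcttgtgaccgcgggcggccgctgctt
GM2A chr5:151252985-151253184: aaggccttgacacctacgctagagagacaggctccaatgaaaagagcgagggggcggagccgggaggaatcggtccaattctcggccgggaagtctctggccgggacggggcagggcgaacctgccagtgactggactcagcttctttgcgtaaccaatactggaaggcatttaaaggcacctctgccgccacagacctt
A match in these windows is a description of the letters and says nothing on binding in these cells.

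The rest of the pathway was read from 6 further lists with 100 genes, of which 93 were tested and 11 were called (6.28% of all genes), 5 higher (2.95% of all genes) and 6 lower (3.33% of all genes), with a median change of 0.19. Of 14 regulators of lysosomal genes and of nutrient sensing at the lysosome, 2 were called and both were higher. TFEC, a relative of TFEB, was at -8.61 and -8.40 in the naive flasks, not well above background. In the resistant flasks it was at -3.29 and -3.42, at least 7.47-fold higher (limma adjusted p = 0.000862). Its second probe was called as well. The naive values of TFEC are not measured levels, so the p-value does not measure the spread of naive flasks. RRAGB, a Rag GTPase of the amino acid sensing complex, was at -3.98 and -4.13 against -2.41 and -2.84 (1.43 ± 0.26, SE, limma adjusted p = 0.0443). The other 12 regulators were not called.

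Of 22 tested subunits of the V-ATPase 3 were called (6.28% of all genes). ATP6V0D2, a subunit form known from osteoclasts and macrophages, was at -8.60 and -8.40 in the naive flasks, not well above background. In the resistant flasks it was at -4.84 and -3.96, at least 3.63-fold higher (limma adjusted p = 0.00415). As for TFEC, this p-value does not measure the spread of naive flasks. ATP6V1G2, a form known from neurons, was at -2.82 and -3.35 against -1.15 and -1.25 (1.89 ± 0.27, SE, limma adjusted p = 0.0216). ATP6V0E2 was at -2.39 and -3.57 against -7.60 and -7.44, the latter not well above background, and so at least 11.1-fold lower (limma adjusted p = 0.00538). Each of these is known as an alternative form of a subunit that another gene also encodes, and the other 19 tested subunits were not called.

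Of 25 other hydrolases 3 were called (6.28% of all genes). DNASE2, the acid endonuclease of lysosomes, was at -2.57 and -1.95 in the naive and 0.11 and -0.19 in the resistant flasks (2.22 ± 0.30, SE, limma adjusted p = 0.0181). As with CTSW, the cathepsins CTSF and CTSL2 fell. CTSF was at -1.19 and -1.11 against -6.17 and -7.67, the last of these not well above background, so that the fitted change rests in part on a value without a measured level (-5.77 ± 0.51, SE, limma adjusted p = 0.00440), and CTSL2 (now CTSV) was at -3.98 and -5.25 against -8.51 and -8.18, not well above background in the resistant line and at least 3.58-fold lower (limma adjusted p = 0.0129).

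Of 18 other membrane proteins 2 were called, both lower (of all genes 6.28% were called, 3.33% as lower). LAPTM4B, a transmembrane protein of late endosomes and lysosomes, was at 2.06 and 1.45 in the naive and -3.10 and -2.86 in the resistant flasks (-4.73 ± 0.30, SE, limma adjusted p = 0.00169), and its second probe, well above background on 1 of 2 resistant arrays, gave -4.71. MCOLN2, a channel related to MCOLN1, was at -5.60 and -5.58 against -7.67 and -8.81, not well above background in the resistant line. It was at least 1.81-fold lower (limma adjusted p = 0.0278). This bound is under the 2-fold limit, which the call met only through values without a measured level. Of 10 genes of mannose 6-phosphate tagging and delivery 1 was called, SORT1, the receptor sortilin, at -3.79 and -4.40 against -7.10 and -6.66, not well above background in the resistant line and at least 5.10-fold lower (limma adjusted p = 0.00980). Of 4 tested cystatins, which inhibit cysteine cathepsins, 0 were called by limma and 1 was at an unadjusted limma p below 0.05 (21.1% of all genes). The highest of them was CSTA, at 3.87 and 5.06 against 5.20 and 5.48 (0.88 ± 0.43, SE), and the lowest CST7, at 1.56 and 1.31 against 0.35 and 0.41 (-1.06 ± 0.23, SE, limma adjusted p = 0.0751).

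**Figure D5:**
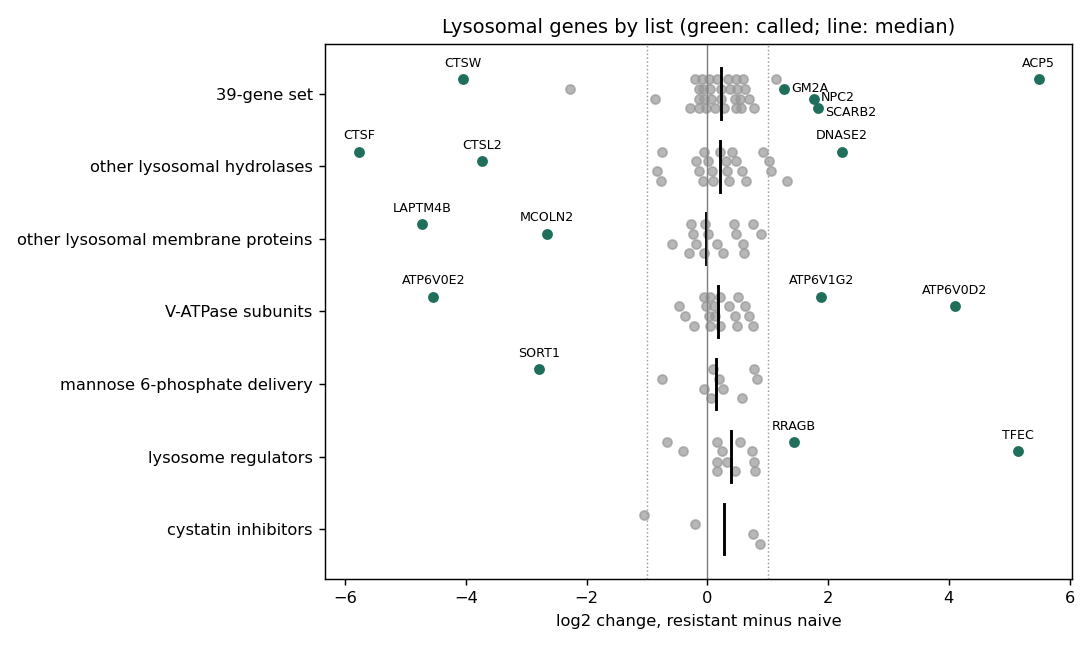
Change (log2, resistant minus naive) of the tested genes of the 39-gene set and of the 6 other lists, each point 1 gene, green and named where called, with a line at the median of each list and dotted lines at 2-fold either way. Most points lie within the dotted lines in every list, and the called genes lie on both sides.

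The azurophil granule proteins that share the lysosomal route were read from the promyelocyte markers. ELANE, neutrophil elastase, was at -5.74 and -6.56 in the naive flasks, the second not well above background, and at -3.66 in both resistant flasks (2.49 ± 0.33, SE, limma adjusted p = 0.0169), and AZU1, azurocidin, at -0.77 in both naive flasks against 0.40 and 0.39 (1.17 ± 0.21, SE, limma adjusted p = 0.0472). PRTN3, proteinase 3, was at 3.16 and 0.80 against 4.43 and 4.32 and did not pass (limma adjusted p = 0.179). CTSG, saturated on 2 arrays, differed by 0.78 ± 0.34 (SE, limma adjusted p = 0.302) and did not pass. MPO, saturated on all 4 arrays, differed by 0.057 and could not be compared. CD33 and CEBPE differed by -0.29 and -0.62 without passing. The log2 of the summed signal of this list was 7.66 and 7.65 in the naive and 7.79 and 8.06 in the resistant flasks. Most of this sum comes from MPO, MYB and CTSG, which were saturated on some or all arrays, so it cannot show how the lines differ. The part of this list in the changes of the lysosomal genes was not tested. Of 6 stromal markers COL1A1, COL1A2, COL3A1 and LUM were not well above background on any array, and 0 were above it on all arrays. DCN was above it on 1 array of each line and was not tested. PDGFRB, a growth factor receptor of stromal cells, was at -5.94 and -6.67 in the naive flasks, the second not well above background, and at -5.52 and -5.49 in the resistant flasks, without overlap, and was not called (0.80 ± 0.31, SE, limma adjusted p = 0.257). The log2 of the summed signal of this list was -4.35 and -4.42 in the naive and -4.27 and -4.16 in the resistant flasks, and its part in the results was not tested.

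The number of calls depended on the background correction and on the test. With the normexp correction limma called 0 of the 37 members (5 were at an unadjusted p below 0.05) and 0 of all named genes, and with Benjamini-Hochberg adjustment the methods' t-test likewise called 0 of the 37 (8 at an unadjusted p below 0.05). The same 5 members were called with normexp after bright local backgrounds had been reset to the array's median, an alternative chosen after seeing the data.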

How the data were processed

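RNA of naive NB4 cells (2 flasks) and of the ATO resistant line (2 flasks) was measured on 1-colour Agilent whole human genome arrays, Cy3 labelled, 1 flask per array. The authors extracted the images with Agilent Feature Extraction 10.5.1.1 and the scanner output was deposited, in which the processed signal is a linear intensity, background subtracted and corrected for trends across the array with a surrogate for low spots, beside the mean spot and median local background intensities. A further deposited table holds log2 values that the authors had shifted in GeneSpring GX to the 75th percentile of each array.

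From the processed intensities control and outlier spots were left out, spots of a probe were averaged as log2 values, and each array's 75th percentile was taken off. Against the deposited log2 table, whose column medians lay between -3.64 and -3.49, the Pearson r across probes was at least 0.9998 on each array. This settles the direction of that table, while a correlation cannot settle its scale or centring. Arrays have no read depth, and their number limits the precision. Probes that were well above background on both arrays of either line were tested with lmFit and eBayes of limma 3.58.1 in R 4.3.3, with Benjamini-Hochberg adjustment over all of them. The fit was also run on simulated data with the same spread in both lines. That run cannot show how the fit does with the unequal spread of these flasks. Probe positions are on hg19, and current symbols were found for 38 of the 39 members through RefSeq, all but CTSH. Promoter windows and their coordinates are from RefSeq, GRCh38.p14.

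The members and lists were chosen with earlier results of these data known. Every member could be named, of the other lysosomal lists the called genes (of a list without a call its highest and lowest), and of the marker lists the genes above background. The alternatives were normexp (offset 50), normalization by quantiles, by scale and by the median, the deposited table, other filters and thresholds, the mean over probes, an intensity trend, the methods' t-test, the replicate block, and each flask left out.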

Additional observations from a re-analysis of the deposited data

How the results depend on the processing

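Of 738 values of single members under 20 alternatives, 673 kept their direction and their side of the threshold, 22 lost and 8 gained a call, and 35 changed sign. With normexp 0 members, 0 of the other lysosomal genes and 0 of all genes were called by limma (5, 6 and 645 at an unadjusted p below 0.05), and with the methods' t-test after adjustment 0, 0 and 0 (8, 27 and 2432). The cause was not tested. With bright local backgrounds reset before normexp, limma called 5, 9 and 790, of which 5, 6 and 589 were called in the analysis reported above. Without a filter on dim probes 3 members and 571 genes in all were called, and with those above background on all 4 arrays 3 members, 3 other lysosomal genes and 493 genes in all, where fewer genes were tested. A 2-fold limit with no test gave 1843 genes. With single flasks left out the members called ranged from 2 to 8, the other lysosomal genes from 7 to 18 and all genes from 413 to 2165, the low counts without a resistant flask and the high ones without a naive flask. The median change of the members ranged from 0.19 to 0.36 over the alternatives. The median of all probes tested moved from -0.020 to 0.129 with normexp and to 0.083 with scale normalization.

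Of the called members CTSW kept its call in 18 of 20 alternatives, ACP5 in 17 of 19, SCARB2 in 16, NPC2 in 15 and GM2A in 11 of 20. Under normexp ACP5 changed by 2.26 and CTSW by -2.80. With the replicate block 4 members were called (GM2A was lost, limma adjusted p = 0.0760), 10 other lysosomal genes and 783 genes in all. The flasks are not known to be paired, and the deviations of same-numbered flasks correlated with r = 0.119 over 2 pairs, too few to show a pairing. A block for the slide was not run, since there was 1.

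None of the values that changed sign was called. They were small except with single flasks left out, where ARSB reached 0.59 and GAA -0.44. With normexp ARSB gave 0.088, CTSC -0.15, CTSD 0.081, LAMP1 -0.0078 and SMPD1 0.096, and with the backgrounds reset CTSC gave -0.097 and CTSD 0.050. Quantile normalization gave 0.012 for CTSD and -0.074 for LAMP1, scale normalization 0.11 for CTSA, 0.057 for CTSD and 0.11 for PPT1, and the median shift 0.017 for CTSD. Without saturated probes LAMP1 gave -0.18, and the mean over probes was -0.061 for LAMP1 and -0.013 for ACP2. With single flasks left out the change ranged from -0.31 to 0.36 for ACP2, -0.87 to 0.59 for ARSB, -0.24 to 0.12 for CTSA, -0.16 to 0.35 for CTSC, -0.22 to 0.17 for CTSD, -0.17 to 1.35 for CTSK, -0.40 to 0.11 for CTSL1, -0.44 to 0.68 for GAA, -0.10 to 0.21 for LAMP1, -0.24 to 0.32 for MCOLN1, -0.22 to 0.038 for PPT1, -0.54 to 0.40 for SMPD1 and -0.37 to 0.082 for TPP1.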

Other observations

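The 3 nearest tested genes on each side of every called member on its chromosome were read as well. Of the 6 neighbours of ACP5 and the 6 of GM2A, 0 were called by limma. Of the 6 neighbours of CTSW, NPC2 and SCARB2 each, 1 was called, and these are named after their values were seen. FOSL1, with FIBP and CCDC85B between it and CTSW, changed by -2.40 (limma adjusted p = 0.00745). ALDH6A1, with LIN52 and ABCD4 between it and NPC2, changed by 1.38 (limma adjusted p = 0.0290). CXCL10, with NUP54 between it and SCARB2, was not well above background in the resistant line (means -5.45 and -8.63, limma adjusted p = 0.00353). Its bound was 1.996-fold lower, so it met the 2-fold limit only through values without a measured level. None of the genes named as lying between was called by limma. Of all genes tested, 6.28% were called.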
